A study of Mus musculus with 27 samples.

Results

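Transcripts of 9 genes for CXC chemokines (Cxcl1, Cxcl2, Cxcl3, Cxcl5, Cxcl9, Cxcl10, Cxcl12, Cxcl14 and Cxcl16) were followed through 27 mouse RNA sequencing libraries. The genes were taken as a named list, not by their values, from a table of 25192 gene symbols, and all 9 were found there. The libraries came from 3 kinds of cultured cell: macrophages grown from bone marrow (BMDMs), fibroblasts from mouse embryos (MEFs) and cells labelled as mouse aortic endothelial (MAECs). Each kind was either unstimulated (0 h) or given imidazole propionate (ImP), a product of histidine breakdown by gut bacteria, at 10 µg/mL for 1 or 2 h, with 3 libraries in each of the 9 groups. The study asks which transcriptional pathways ImP raises in these cells, with atherosclerosis as the disease in view. The labels state no strain, genotype or age for any group, and no source animal or culture for each library. The spread behind the p-values is that between these libraries and could be technical. There is no vehicle group at 1 or 2 h, and ImP and time since plating cannot be told apart.

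CXC chemokines are small secreted proteins that steer leukocytes through G protein coupled receptors, and they are named for a pair of cysteines with another residue between them. Cxcl1, Cxcl2, Cxcl3 and Cxcl5 carry a glutamate-leucine-arginine motif before those cysteines and draw neutrophils through Cxcr2, and their genes are rapid targets of NF-kB. Cxcl9 and Cxcl10 are interferon-inducible ligands of Cxcr3 on T cells. Cxcl12 binds Cxcr4 and the scavenging receptor Ackr3 and is made by stromal cells, Cxcl14 is made in many resting tissues, and Cxcl16 is a transmembrane ligand of Cxcr6 that also takes up oxidized lipoprotein. In the artery wall such chemokines recruit monocytes and neutrophils to atherosclerotic lesions.

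Total counts per library were 28.8 to 35.6 M in macrophages, 30.6 to 36.5 M in fibroblasts and 19 to 61 M in the libraries labelled MAEC. The latter were made with a low-input kit and the others with a directional kit, so kit and cell type cannot be told apart. All 9 macrophage markers had a mean of at least 10 CPM (counts of a gene per 1000000 counts of its library) in the macrophage libraries, and 5 of 9 fibroblast markers did in fibroblasts. In the libraries labelled MAEC only 1 of 10 endothelial markers reached 10 CPM and 5 lay under 1 CPM, among them Cdh5 (0.568 CPM) and Kdr (0.215 CPM), while 8 of 9 fibroblast and 5 of 6 smooth muscle markers reached it. Results on them refer to the label. Among macrophages, the third 1 h library and the third 2 h library did not match the others of their groups. Nfkbia, an NF-kB target that encodes an inhibitor of NF-kB, read 36.2 to 39.9 CPM in the 0 h libraries, 224, 215 and 40.9 CPM in those of 1 h and 45, 36.8 and 232 CPM in those of 2 h. The library codes of the third set run 21 at 0 h, 23 at 1 h and 22 at 2 h, whereas in the other 8 of 9 sets the codes ascend with time. Macrophage results are therefore given as labelled and also without these 2 libraries. That choice was made on the outcome after the values were seen, those of Cxcl1, Cxcl2 and Cxcl10 among them. It makes the p-values too small.

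Of the 9 genes, 6 lie on chromosome 5 in the GRCm38 assembly. Cxcl5 (90759360 to 90761624), Cxcl3 (90786103 to 90789600), Cxcl1 (90891241 to 90893115) and Cxcl2 (90903871 to 90905938) follow each other on the plus strand. Cxcl9 (92321347 to 92328079) and Cxcl10 (92346638 to 92348889) lie further along on the minus strand. Cxcl12 is on chromosome 6 (117168535 to 117181367, plus strand), Cxcl16 on chromosome 11 (70453983 to 70459984, minus strand) and Cxcl14 on chromosome 13 (56288643 to 56296551, minus strand). Cxcl10 overlaps Art3 and Cxcl16 overlaps Zmynd15, each on the opposite strand, and the strand of counting is not given in the sources used here. Art3 reached at most 0.159 CPM in macrophages and 0.825 CPM in fibroblasts. In the libraries labelled MAEC it reached 1.64 CPM, where Cxcl10 reached at most 0.719 CPM, so Cxcl10 is uncertain there. Zmynd15 stood at 5.36 to 7.71 CPM in macrophages, against 76.8 to 104 CPM for Cxcl16. Transcripts of Cxcl2 and Cxcl3 share 126 stretches of 50 bases (5.84% of those in Cxcl2 and 3.51% of those in Cxcl3), so reads there could be divided between the pair, and low Cxcl3 values are uncertain.

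RefSeq promoter windows on GRCm38.p6 were at hand for 7 of the 9 genes, all except Cxcl5 and Cxcl16. The windows of Cxcl1, Cxcl2, Cxcl3 and Cxcl10 are shown because these 4 of 7 hold the kappa B consensus, the binding sequence of NF-kB, within 250 bases before the start, and because Cxcl1, Cxcl2 and Cxcl10 moved together in the macrophage libraries described next. Each is printed 5′ to 3′ on the gene's strand from 250 to 31 bases before the start: chr5:90890995-90891214 (plus), chr5:90903649-90903868 (plus), chr5:90785851-90786070 (plus) and chr5:92348920-92349139 (minus). Capitals mark matches to the kappa B consensus and, first in Cxcl10, to a GAAA repeat (2 copies of GAAA with any 2 bases between), the core to which interferon-regulated factors bind.
Cxcl1: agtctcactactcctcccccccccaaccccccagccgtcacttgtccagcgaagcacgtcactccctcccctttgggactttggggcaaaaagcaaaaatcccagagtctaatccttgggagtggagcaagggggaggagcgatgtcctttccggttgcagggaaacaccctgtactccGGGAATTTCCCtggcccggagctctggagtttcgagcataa
Cxcl2: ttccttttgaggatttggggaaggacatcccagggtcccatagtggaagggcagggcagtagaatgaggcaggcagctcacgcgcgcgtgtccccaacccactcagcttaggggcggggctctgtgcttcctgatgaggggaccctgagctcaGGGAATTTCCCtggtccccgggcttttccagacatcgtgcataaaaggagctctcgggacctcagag
Cxcl3: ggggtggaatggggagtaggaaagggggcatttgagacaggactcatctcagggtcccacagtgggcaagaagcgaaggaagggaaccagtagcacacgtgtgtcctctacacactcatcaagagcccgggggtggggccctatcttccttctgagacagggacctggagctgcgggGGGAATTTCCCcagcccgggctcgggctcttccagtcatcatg
Cxcl10: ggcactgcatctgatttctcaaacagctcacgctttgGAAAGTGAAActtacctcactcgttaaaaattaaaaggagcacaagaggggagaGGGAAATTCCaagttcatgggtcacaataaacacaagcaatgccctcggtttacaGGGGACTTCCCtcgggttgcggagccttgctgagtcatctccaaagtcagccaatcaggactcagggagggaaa
The same 11-base stretch, GGGAATTTCCC, begins 71 bases before the start in Cxcl1, 97 in Cxcl2 and 73 in Cxcl3. The consensus matches it on both strands in overlapping positions. In Cxcl10 the matches begin 159 and 104 bases before the start. The match at 159, GGGAAATTCC, is the reverse complement of GGAATTTCCC within that shared stretch, and the match at 104 has other letters. On either strand, 7.25% of 32851 RefSeq windows of this length hold the kappa B consensus. The GAAA repeat is in Cxcl10 and Cxcl14 and in 2.98% of windows, and TGANTCA, the AP-1 consensus, is in Cxcl10 and in 6.75%. TATAAA on the sense strand is in Cxcl3 and Cxcl9 and in 7.59%. A match describes the letters of a window and does not show that a factor binds there.

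In macrophages, transcripts of Cxcl1, Cxcl2 and Cxcl10 were high in the first and second libraries at 1 h and in the third library at 2 h, and at 0.303 to 2.89 times the 0 h mean in the other ImP libraries. Of the 6 that passed the low-count filter, none was called (edgeR adjusted p under 0.05) as labelled at 1 h (background 0.0226% of all genes) or 2 h (0.0302%). Leaving out the third 1 h and 2 h libraries, on the outcome, left 2 at each of these times. In that fit 3 of 7 were called higher at 1 h (background 0.824%), Cxcl2 by 69.2-fold, Cxcl1 by 47.7-fold and Cxcl10 by 3.67-fold. The same 3 were lower at 2 h than at 1 h (background 0.609%). These calls were partly fixed by that choice. Cxcl12, Cxcl14 and Cxcl16 passed the test in neither reading. In these bulk libraries, more cells making a transcript and more transcript per cell cannot be told apart.

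Cxcl2 is a neutrophil attractant of activated macrophages. Its 0 h libraries held 1.2, 1.58 and 1.22 CPM, those of 1 h 90.5, 96 and 2.63 CPM and those of 2 h 1.4, 2.63 and 101 CPM. All 3 libraries at 1 h lay above all 3 at 0 h, but the third did so by 1.97-fold over the 0 h mean where the others did by 67.7 and 71.9-fold, and at 2 h only the third was high (75.8-fold). As labelled, the log2 fold change was 5.55 at 1 h (SE 2.26, unadjusted p = 0.048, edgeR Benjamini-Hochberg adjusted p = 0.922) and 4.71 at 2 h (SE 2.24, edgeR adjusted p = 0.812). Without the third libraries it was 6.11 at 1 h (SE 0.184, edgeR adjusted p = 2.23e-08), 0.57 at 2 h (SE 0.251, edgeR adjusted p = 0.643) and -5.54 for 2 h against 1 h (SE 0.209, edgeR adjusted p = 2.35e-07).

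Cxcl1, which shares the receptor Cxcr2 with Cxcl2, had the same layout at a lower level. Unstimulated macrophages held 0.159, 0.402 and 0.298 CPM, from 5 to 14 counts per library. With ImP the values were 13.4, 14.5 and 0.0868 CPM for 1 h and 0.827, 0.175 and 20.5 CPM for 2 h. The third library at 1 h (3 counts) fell below every 0 h library, so the groups overlapped at both times. As labelled, the log2 fold change was 4.99 at 1 h (SE 2.33, edgeR adjusted p = 0.937) and 4.62 at 2 h (SE 2.35, edgeR adjusted p = 0.816). Without the third libraries Cxcl1 rose by 5.57 at 1 h (SE 0.428, edgeR adjusted p = 9.93e-05), and the value for 2 h against 1 h was -4.76 (SE 0.472, edgeR adjusted p = 0.000925).

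Cxcl3 and Cxcl5, the other Cxcr2 ligands, were barely detected in macrophages and did not pass the filter there. Cxcl3 had 0, 3 and 0 counts at 0 h, 12, 16 and 0 counts at 1 h, and 3, 3 and 6 counts at 2 h. Its counts were highest in the libraries in which Cxcl2 was high, and how reads in the sequence it shares with Cxcl2 were divided was not tested. It passed the filter without the third libraries, with a log2 fold change of 3.60 at 1 h (SE 1.09, edgeR adjusted p = 0.28). Cxcl5 had at most 2 counts in any macrophage library, under the 3 counts that a count of 0 allows. A change of Cxcl5 in macrophages was not detectable at this depth.

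**Figure D1:**
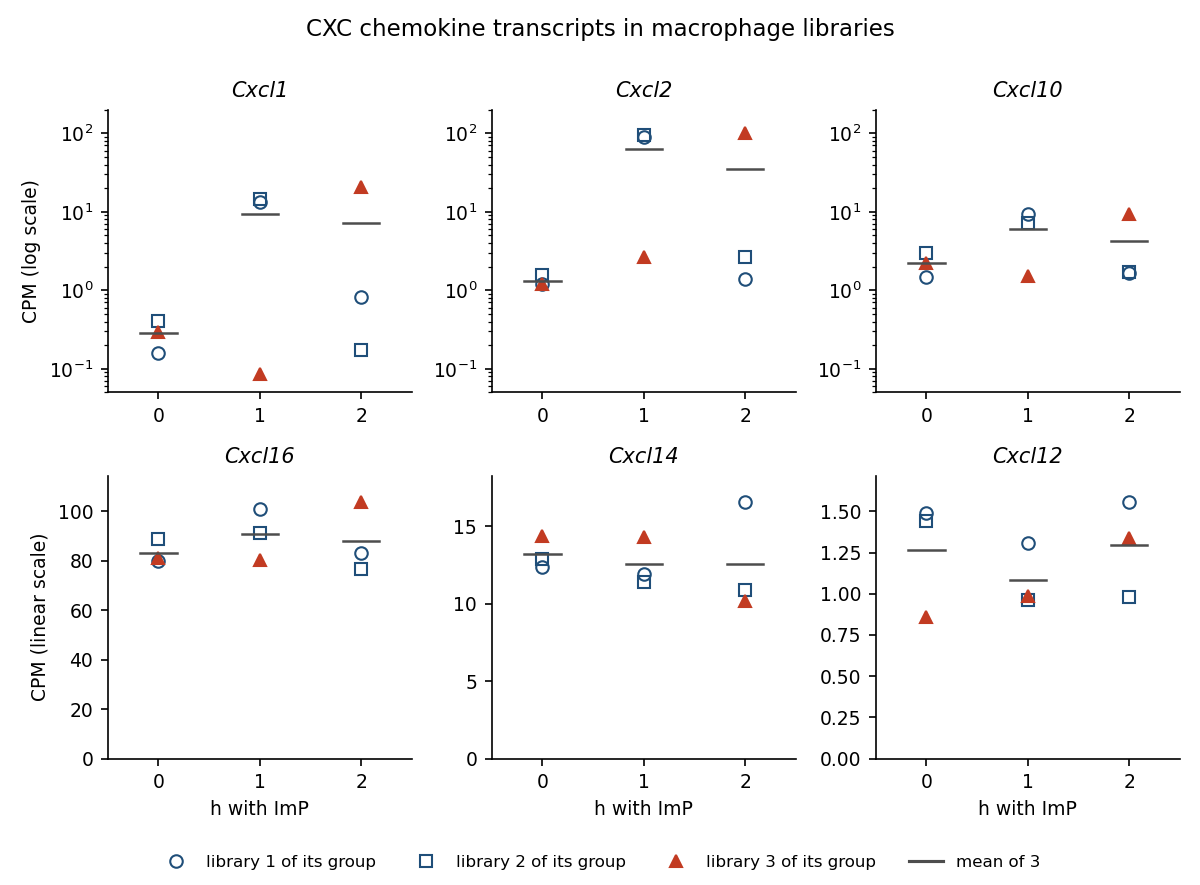
Levels of 6 CXC chemokines in the 9 macrophage libraries, in CPM, by hours with ImP; each point is 1 library, the horizontal bar is the group mean, and the upper row (Cxcl1, Cxcl2, Cxcl10) has log axes and the lower row (Cxcl16, Cxcl14, Cxcl12) linear ones. In the upper row the first and second libraries at 1 h and the third at 2 h are high, and the third at 1 h is low.

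Cxcl10, an interferon-inducible ligand of Cxcr3, read 1.49, 2.96 and 2.25 CPM in unstimulated macrophages. It read 9.27, 7.21 and 1.53 CPM after 1 h and 1.65, 1.72 and 9.4 CPM after 2 h, so the high libraries were those in which Cxcl1 and Cxcl2 were high. As labelled, the log2 fold change was 1.42 at 1 h (SE 0.932, edgeR adjusted p = 0.964). Without the third libraries it rose by 1.88 at 1 h (SE 0.26, edgeR adjusted p = 0.00138) and was -2.29 for 2 h against 1 h (SE 0.305, edgeR adjusted p = 0.00128). Its sign at 2 h depended on 1 library, with 0.93 (SE 0.939) as labelled and -0.41 (SE 0.291) without the third, and neither passed the test. Cxcl9, the other Cxcr3 ligand here, did not pass the filter: it had 3, 10 and 7 counts at 0 h, 2, 4 and 5 at 1 h, and 0, 0 and 1 at 2 h. It is printed as counts with no test.

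The lipoprotein-binding ligand Cxcl16 read 79.8, 88.9 and 81.1 CPM without ImP, 101, 91.2 and 80.4 CPM after 1 h and 83.1, 76.8 and 104 CPM after 2 h. The first 1 h library and the third 2 h library were the highest of the 9, at 1.21 and 1.25 times the 0 h mean, and the groups overlapped. As labelled, the log2 fold change was 0.12 at 1 h (SE 0.113) and 0.08 at 2 h (SE 0.114). Without the third libraries it was 0.20 at 1 h (SE 0.0756, unadjusted p = 0.0186, edgeR adjusted p = 0.517), with a 95% interval of 0.05 to 0.35.

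Cxcl14, a chemokine of resting tissues, read 12.4, 12.9 and 14.4 CPM without ImP, 11.9, 11.4 and 14.3 CPM after 1 h and 16.6, 10.9 and 10.2 CPM after 2 h. Cxcl12, the Cxcr4 ligand, was at 0.859 to 1.49 CPM at 0 h, 0.965 to 1.31 CPM at 1 h and 0.982 to 1.56 CPM at 2 h. Neither showed the layout of the third libraries seen in Cxcl2, and their groups overlapped at both times. As labelled, the 95% interval of the log2 fold change at 1 h was -0.41 to 0.25 for Cxcl14 and -0.90 to 0.46 for Cxcl12.

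The calls set these values against all genes. As labelled, 0 of 6 chemokines were called at 1 h, where 0.0226% of 13251 genes were, and 0 of 6 at 2 h (background 0.0302%). For 2 h against 1 h, 0 of 6 were called (background 0.0%). Only Cxcl2 at 1 h reached an unadjusted p under 0.05. None of the 6 was called by DESeq2, which called 13, 15 and 1 of all genes in these comparisons, or by limma-voom, which called 5, 4 and 1. Cxcl2 was also the only member whose 3 ImP libraries all lay above 0 h, at 1 h (1 of 6, background 4.78%), and there was none at 2 h (background 5.24%). Without the third libraries, 3 of 7 were called higher at 1 h (background 0.824% of 13465 genes), 0 of 7 either way at 2 h (0.119%), and 3 of 7 lower at 2 h than at 1 h (0.609%). Those libraries were set aside after the values of these 3 members were seen. The calls were partly fixed by that choice and lend it no support, also where they exceed the background. At 2 h in the fit without the third libraries Cxcl2 alone had an unadjusted edgeR p under 0.05 (0.047).

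**Figure D2:**
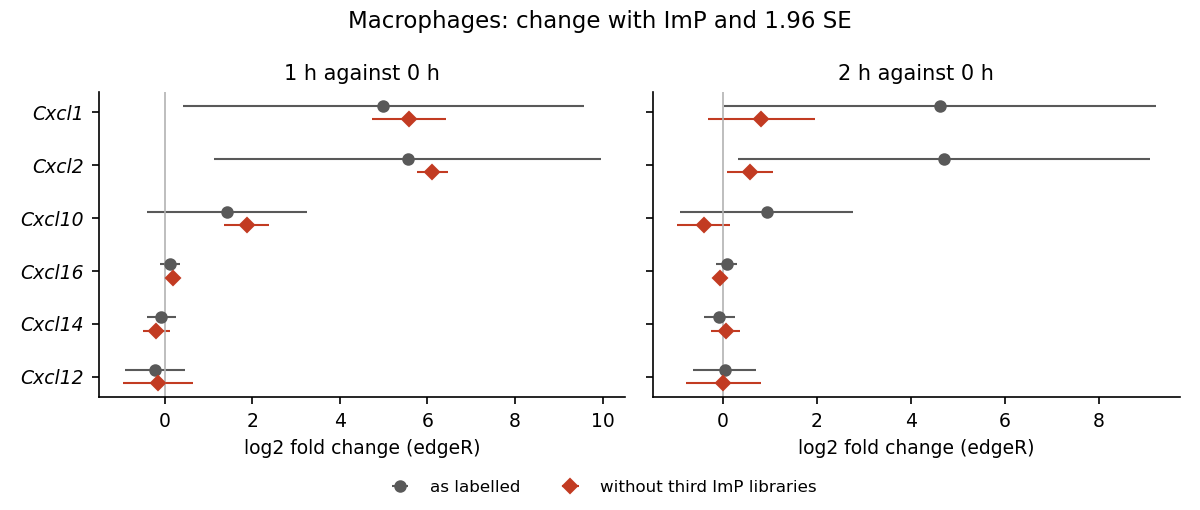
Log2 fold changes of 6 chemokines in macrophages at 1 h and 2 h against 0 h, as labelled and without the third ImP libraries. Points are edgeR estimates, and bars are 95% intervals by a normal approximation from the SE, narrower than the edgeR test. As labelled the bars of Cxcl1 and Cxcl2 exclude 0 at 1 h and 2 h, and neither was called. The unadjusted edgeR p were 0.0749 and 0.0951 for Cxcl1 and 0.048 and 0.0788 for Cxcl2. Without the third libraries the bars of Cxcl2 at 2 h and of Cxcl16 at 1 h also exclude 0 without a call. As labelled the intervals of Cxcl1 and Cxcl2 are wide at both times. Without the third libraries, which leaves 2 each at 1 h and 2 h, they are narrower. They are then centred on 5.57 and 6.11 at 1 h and 0.82 and 0.57 at 2 h, and that of Cxcl1 at 2 h runs from -0.32 to 1.95. Leaving out the libraries that did not match their groups itself narrows them.

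Whether macrophages differed from fibroblasts was tested as the difference of their log2 fold changes in 1 model of all 27 libraries. As labelled, 0 of 8 chemokines passed at 1 h (background 0.00587% of 17038 genes) and 0 of 8 at 2 h (background 0.0117%). The difference at 1 h was 4.28 for Cxcl1 (SE 1.76, unadjusted p = 0.0251, edgeR adjusted p = 1) and 5.07 for Cxcl2 (SE 2.07, unadjusted p = 0.0243, edgeR adjusted p = 1). At 2 h it was 4.38 for Cxcl1 (SE 1.77, unadjusted p = 0.0227, edgeR adjusted p = 1) and 4.73 for Cxcl2 (SE 2.09, unadjusted p = 0.0356, edgeR adjusted p = 1). Without the third macrophage libraries both passed at 1 h (2 of 8 higher in macrophages, background 0.148% of 17582 genes). These calls too were partly fixed by the choice of libraries. Cxcl1 then differed by 4.86 (SE 0.65, edgeR adjusted p = 0.000314) and Cxcl2 by 5.63 (SE 1.01, edgeR adjusted p = 0.013). At 2 h in that fit the differences were 0.57 for Cxcl1 (SE 0.879) and 0.59 for Cxcl2 (SE 1.05), and 0 of 8 passed (background 0.0114%). The difference for Cxcl10 at 1 h was 1.12 (SE 0.54, unadjusted p = 0.0496, edgeR adjusted p = 1), and it did not pass.

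Fibroblasts held much more Cxcl1 and Cxcl10 before ImP than macrophages did, and no chemokine was called in them at either time. All 7 members tested had positive log2 fold changes at 1 h, with a median of 0.49 against 0.01 over all 14066 genes, and the first 1 h library was the highest of the 9 for Cxcl1, Cxcl3, Cxcl10 and Cxcl12. Of 7 members 0 were called at 1 h (background 0.0%), at 2 h (background 0.0%) and for 2 h against 1 h (background 0.0%). DESeq2 and limma-voom called no chemokine either, where DESeq2 called 10, 5 and 308 of 14066 genes in these comparisons and limma-voom none. Only Cxcl3 at 1 h had an unadjusted p under 0.05.

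Cxcl1 in fibroblasts read 105, 142 and 90.8 CPM without ImP, 242, 181 and 127 CPM after 1 h and 165, 148 and 78 CPM after 2 h. The third library was the lowest of its group at every time, and the groups overlapped. The log2 fold change at 1 h was 0.70 (SE 0.353, edgeR adjusted p = 0.855), and without the first 1 h library it was 0.45. At 2 h it was 0.21 (SE 0.352, edgeR adjusted p = 1). The 95% intervals were 0.01 to 1.40 at 1 h and -0.48 to 0.90 at 2 h. They are normal approximations from the SE, narrower than the edgeR test, which gave an unadjusted p of 0.0862 at 1 h.

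Of the other Cxcr2 ligands in fibroblasts, Cxcl5, which is also made by epithelial and stromal cells, read 22.7, 25.4 and 22.5 CPM without ImP. It read 28.5, 30.2 and 26.6 CPM after 1 h and 28.7, 31.3 and 17.9 CPM after 2 h. It was the only one of 7 with all 3 libraries at 1 h above all 3 at 0 h (background 4.99%), by a log2 fold change of 0.27 (SE 0.166, edgeR adjusted p = 0.855), and at 2 h 0 of 7 were (background 4.51%). Cxcl3 was low, with 0.339, 0.933 and 0.317 CPM without ImP, 2.16, 0.88 and 0.764 CPM after 1 h and 0.534, 0.559 and 1.14 CPM after 2 h. Its value at 1 h was 1.25 (SE 0.565, unadjusted p = 0.0448, edgeR adjusted p = 0.846) and 0.63 without the first 1 h library. Cxcl2 lay between 0.349 and 1.27 CPM in all 9 libraries.

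Cxcl10 was the chemokine with the most transcript per length in fibroblasts. It read 142, 237 and 159 CPM without ImP, 437, 275 and 186 CPM after 1 h and 237, 214 and 127 CPM after 2 h. The groups overlapped at both times, and as for Cxcl1 the first 1 h library was the highest and the third 2 h library the lowest of the 9. The log2 fold change was 0.74 at 1 h (SE 0.39, edgeR adjusted p = 0.855), 0.36 without the first 1 h library, and 0.11 at 2 h (SE 0.389, edgeR adjusted p = 1). Across the 9 fibroblast libraries, Cxcl1 and Cxcl10 had a Pearson correlation of 0.97 of log2(CPM + 1), a description over libraries that share groups and scaling. Cxcl9 had at most 5 counts and Cxcl14 at most 2 in any fibroblast library.

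The stromal ligand Cxcl12 read 49.6, 60.2 and 55.1 CPM in fibroblasts without ImP, 51 to 68.1 CPM after 1 h and 54 to 63.3 CPM after 2 h. Cxcl16 was at 12.2 to 13.8 CPM at 0 h, 13.3 to 16.4 CPM at 1 h and 12.7 to 17.3 CPM at 2 h. Their ranges overlapped at all times. The 95% interval of the log2 fold change at 1 h was -0.10 to 0.33 for Cxcl12 and -0.14 to 0.39 for Cxcl16.

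**Figure D3:**
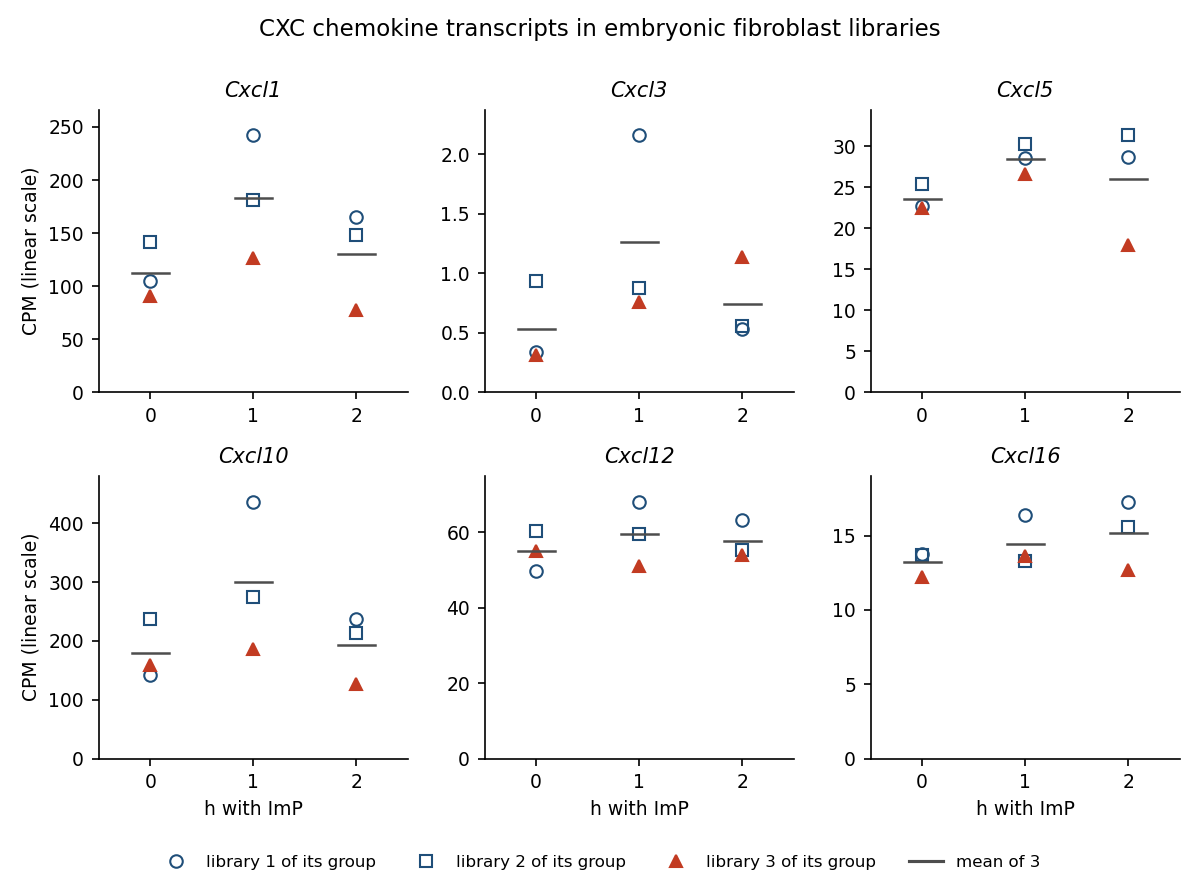
Levels of 6 CXC chemokines in the 9 fibroblast libraries, in CPM, by hours with ImP; each point is 1 library and the horizontal bar is the group mean. Cxcl10 reaches 437 CPM and Cxcl1 242 CPM in the first 1 h library, and the groups overlap in each panel at 2 h.

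The libraries labelled MAEC had Cxcl12 as their leading chemokine, and no chemokine was called in them. Cxcl12 read 1550, 1370 and 936 CPM without ImP, 1400, 1140 and 1300 CPM after 1 h and 1200, 1040 and 1440 CPM after 2 h. Its groups overlapped, with log2 fold changes of -0.01 at 1 h (SE 0.171, 95% interval -0.34 to 0.33) and -0.06 at 2 h (SE 0.171, 95% interval -0.40 to 0.27). Of 5 members tested, 0 were called at 1 h (background 0.0% of 14779 genes), at 2 h (background 0.0%) and for 2 h against 1 h (background 0.0%), by edgeR. DESeq2 and limma-voom called no chemokine here either, where DESeq2 called 1, 22 and 6 genes and limma-voom none. Only Cxcl5 at 1 h had an unadjusted p under 0.05. The biological coefficient of variation was 0.326 here against 0.126 in each of the other cell types, so smaller changes were harder to detect.

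Cxcl5 in these libraries read 0.823, 0.478 and 0.381 CPM without ImP, 1.27, 1.69 and 6.9 CPM after 1 h and 0.789, 0.503 and 2.01 CPM after 2 h. All 3 libraries at 1 h lay above all 3 at 0 h (1 of 5 members, background 5.36%), and at 2 h 0 of 5 members did (background 8.38%). The log2 fold change at 1 h was 2.52 (SE 0.811, unadjusted p = 0.00828, edgeR adjusted p = 0.826), and without the third 1 h library it was 1.38. Summed markers of neutrophils, which carry the receptor of Cxcl5, were at 0.0478 to 0.305 CPM at 0 h and 0.403 to 2.92 CPM at 1 h. Of these 6 markers 0 reached 10 CPM. The highest was S100a8, at most 2.42 CPM, and 3 (S100a9, Ly6g and Ngp) were at 0 in every library. Their part in the result was not tested.

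The same libraries held Cxcl16 at 14.2, 6.64 and 10.9 CPM without ImP, 8.05, 7.86 and 12 CPM after 1 h and 7.96, 7.76 and 7.91 CPM after 2 h, with overlapping groups. Cxcl1 was low, with 0.747, 1.53 and 1.91 CPM without ImP and 1.05 to 3.12 CPM with it. Cxcl2 had 55, 0 and 0 counts at 0 h, 9, 7 and 0 counts at 1 h and 14, 0 and 13 counts at 2 h. Its log2 fold change was -1.12 at 1 h (SE 1.89) and -0.43 at 2 h (SE 1.83). Cxcl3, Cxcl9, Cxcl10 and Cxcl14 did not pass the filter, and a change in them was not detectable at this depth. As a difference from the fibroblast change, 0 of 8 members passed at 1 h (background 0.0%) or at 2 h (background 0.0%). The smallest unadjusted p were those of Cxcl5 at 1 h, with 2.10 (SE 0.675, unadjusted p = 0.00472, edgeR adjusted p = 0.319), and Cxcl16 at 2 h, with -0.69 (SE 0.287, unadjusted p = 0.0232, edgeR adjusted p = 0.584). Cxcl3 at 2 h was at 5.99 (SE 2.66, unadjusted p = 0.034, edgeR adjusted p = 0.603). That value rests on 0 counts at 0 h and 37 counts in 1 library labelled MAEC at 2 h.

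**Figure D4:**
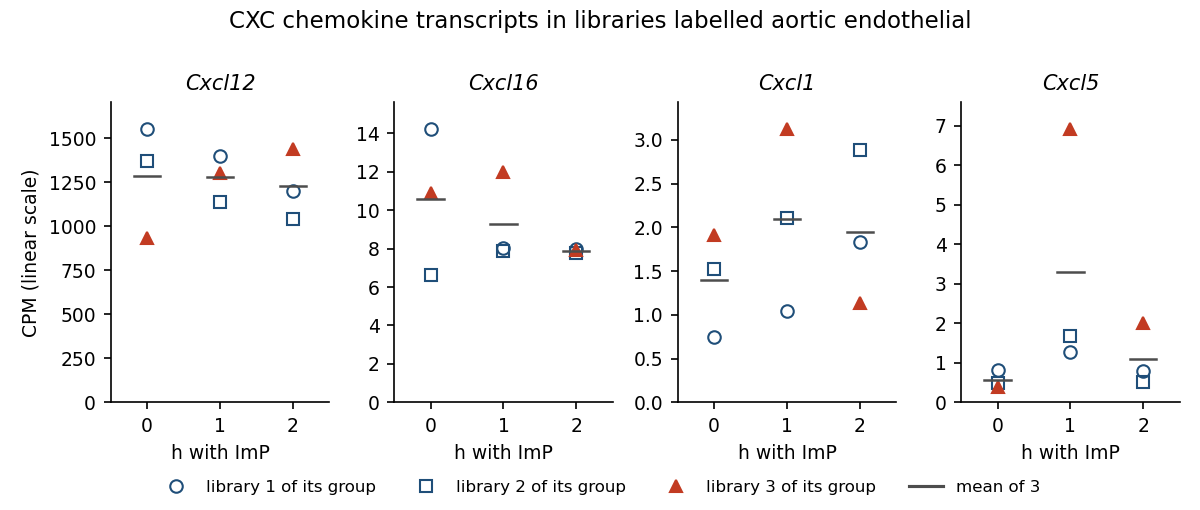
Levels of Cxcl12, Cxcl16, Cxcl1 and Cxcl5 in the 9 libraries labelled MAEC, in CPM, by hours with ImP; each point is 1 library and the horizontal bar is the group mean. Cxcl12 lies between 936 and 1550 CPM at all times, and 1 library at 1 h has Cxcl5 at 6.90 CPM.

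Before ImP each cell type had its own leading chemokine. Levels in this paragraph and the next are at 0 h, scaled over all 27 libraries, as mean ± SD of 3 libraries. Cxcl16 was at 96.8 ± 6.01 CPM in macrophages, 11.7 ± 0.707 in fibroblasts and 10.4 ± 4.14 in the libraries labelled MAEC. Cxcl12 was at 1.47 ± 0.41, 48.5 ± 4.59 and 1250 ± 318 CPM in the same order. Cxcl10 was at 2.6 ± 0.86, 158 ± 44 and 0.217 ± 0.212 CPM, and Cxcl1 at 0.333 ± 0.143, 99.3 ± 22.8 and 1.35 ± 0.569 CPM. The order of cell types therefore differed from gene to gene: macrophages were highest for Cxcl16 and Cxcl14, fibroblasts for Cxcl1, Cxcl5 and Cxcl10, and the libraries labelled MAEC for Cxcl12.

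Between macrophages and fibroblasts 6 of 8 chemokines differed, 2 higher and 4 lower in macrophages (background 68.3% of 17038 genes, 32.7% higher and 35.5% lower). Cxcl16 was higher by 3.05 in log2 units (SE 0.21, edgeR adjusted p = 1.02e-12). Cxcl1 was at -8.19 (SE 1.44), Cxcl10 at -5.92 (SE 0.691) and Cxcl12 at -5.04 (SE 0.223). Where a cell type had 1 to 3 counts, the ratio of CPM is given with an exact 95% counting interval, which covers counting error only. Cxcl14 was 881-fold higher in macrophages (243 to 7280), Cxcl5 1730-fold higher in fibroblasts (310 to 68300), and Cxcl3 13-fold higher in fibroblasts (4.23 to 65.2), and of these Cxcl3 did not pass the edgeR test (adjusted p = 0.0614), but it was called lower in macrophages by DESeq2 (adjusted p = 0.0491) and limma-voom (adjusted p = 0.0262).

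Between the libraries labelled MAEC and fibroblasts 5 of 8 differed, 1 higher and 4 lower in the former (background 72.1%, 37.2% higher and 34.9% lower). Cxcl12 was 25.7-fold higher in the former (log2 4.68, SE 0.192, edgeR adjusted p = 3.31e-17). Cxcl1 (-6.28, SE 1.22), Cxcl5 (-5.15, SE 0.543) and Cxcl10 (-9.53, SE 0.905) were lower, and Cxcl3, with 0 counts there at 0 h, was at least 15.8-fold lower by the 3 counts that a count of 0 allows over the group. Cxcl16 did not pass, at -0.15 (SE 0.202), but at -0.46 without the first 0 h library labelled MAEC it did (edgeR adjusted p = 0.0446). Between macrophages and the libraries labelled MAEC 5 of 8 differed (background 76.7%, 36.1% higher and 40.6% lower): Cxcl10, Cxcl14 and Cxcl16 were higher and Cxcl5 and Cxcl12 lower in macrophages. Cxcl10 (3.61, SE 1.04, edgeR adjusted p = 0.00375) fell just short in limma-voom (adjusted p = 0.0506). Cxcl2 was called in none of the 3 comparisons by the edgeR fit of all 27 libraries, but it was called higher in macrophages than in fibroblasts (log2 1.38, edgeR adjusted p = 0.0182) when only those 2 groups were fitted. Its levels were 1.55 ± 0.251, 0.588 ± 0.379 and 0.355 ± 0.615 CPM in macrophages, fibroblasts and the libraries labelled MAEC. The shares called lie close to the background of all genes, so these counts do not set the chemokines apart.

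Levels of different genes can be compared only per length, as CPM per kb of exons in GENCODE M21. At 0 h in macrophages Cxcl16 led at 32.0 ± 1.99, followed by Cxcl14 at 8.42 ± 0.638, then by Cxcl10 at 1.15 ± 0.382 and Cxcl2 at 0.751 ± 0.121, whose libraries overlapped. Cxcl12 (0.18) and Cxcl1 (0.177) overlapped, as did Cxcl1 and Cxcl9 (0.0789), and Cxcl3 and Cxcl5 were last. In fibroblasts Cxcl10 (70.2 ± 19.6) and Cxcl1 (52.9 ± 12.2) overlapped at the top. Cxcl5 (11.2), Cxcl12 (5.93) and Cxcl16 (3.87) followed without overlap, and Cxcl2 (0.285) and Cxcl3 (0.133) overlapped below them. In the libraries labelled MAEC Cxcl12 stood at 153 ± 38.9 and Cxcl16 next at 3.44 ± 1.37, and the others, from Cxcl1 (0.719) down, overlapped with their neighbours.

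**Figure D5:**
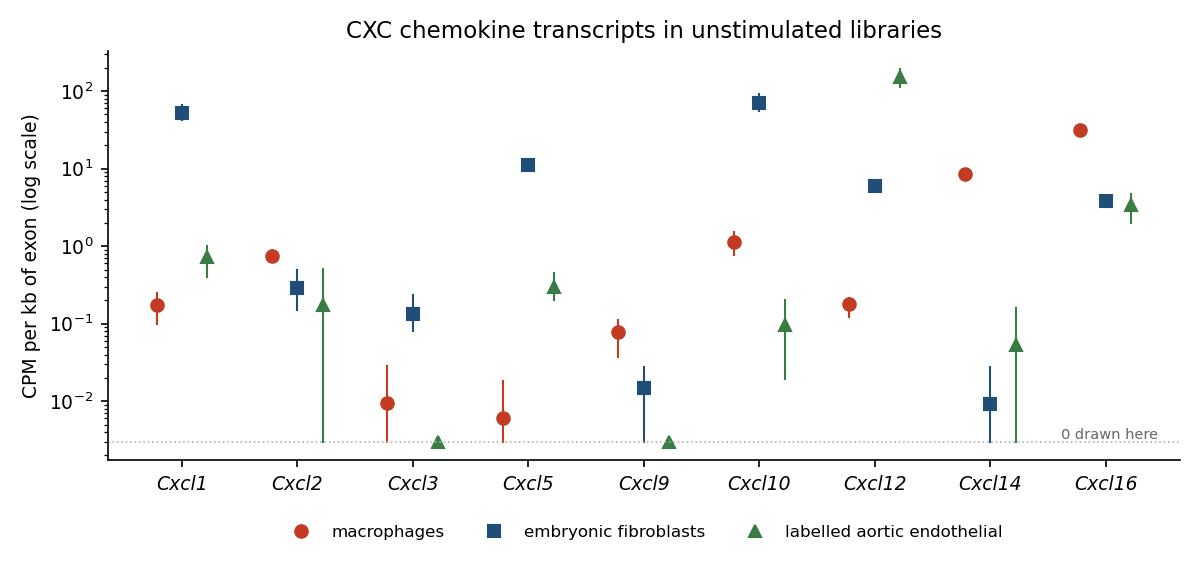
Level at 0 h of each of the 9 CXC chemokines in macrophages, fibroblasts and the libraries labelled MAEC, in CPM per kb of exons on a log axis; points are means of 3 libraries, bars run from the lowest to the highest library, and a level of 0 is drawn at the dotted line. Cxcl16 leads in macrophages (32.0), Cxcl10 and Cxcl1 in fibroblasts (70.2 and 52.9) and Cxcl12 in the libraries labelled MAEC (153).

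Receptors for these ligands were spread unevenly over the cell types. Cxcr4, the receptor of Cxcl12, was at 135 to 183 CPM in the 9 macrophage libraries and at most 0.412 CPM in fibroblasts and 0.14 CPM in the libraries labelled MAEC. Ackr3, the scavenging receptor of the same ligand, had the reverse layout, at 22 to 31.4 CPM in fibroblasts, 30 to 61.3 CPM in the libraries labelled MAEC and at most 0.0954 CPM in macrophages. Cxcr3, the receptor of Cxcl9 and Cxcl10, was at 9.52 to 12.5 CPM in macrophages. Cxcr2, the receptor of Cxcl1, Cxcl2, Cxcl3 and Cxcl5, did not exceed 0.59 CPM in any library. Of 10 CXC receptor genes, 2 were tested in macrophages and 1 in each of the other types, and none was called after ImP. As labelled the background was at most 0.0302% of all genes in macrophages and 0.0% in the other types, so this says little about receptors. Of the other CXC ligands 5 of 6 were in the table, and Pf4, platelet factor 4, was the most abundant, at 74.0 to 102 CPM in macrophages.

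Lists of genes that act with CXC chemokines were followed in the same comparisons. As labelled none of their genes was called with ImP in any cell type (background at most 0.0302% of all genes). Without the third macrophage libraries 11 of 13 tested NF-kB inducers and targets rose at 1 h (background 0.824% of 13465 genes higher, median log2 fold change 1.90 over the 13, against 0.00 over all genes), and 8 were lower at 2 h than at 1 h (background 0.609%). The 4 with the smallest p were Nfkbiz (4.50, SE 0.0989), the cytokine Tnf (3.92, SE 0.0949), Nfkbia (2.54, SE 0.0844) and the deubiquitinase Tnfaip3 (1.90, SE 0.0662), each with an edgeR adjusted p under that of any chemokine here. The third libraries were set aside on values that included Nfkbia, so calls on this list were partly fixed by that choice and lend it no support. All p-values of this fit are too small. Of 10 tested interferon inducers and targets only Irf1 rose at 1 h (1.52, SE 0.0851, edgeR adjusted p = 1.21e-07), and the median of the list was -0.15. Of 6 regulators of mRNA decay, which set the life of chemokine transcripts, 3 rose: Zfp36 (1.32, SE 0.0646), Zc3h12a (1.03, SE 0.114) and Zfp36l1 (0.52, SE 0.0641), and the same 3 were lower at 2 h than at 1 h. Of 15 genes of chemokine receptor signalling 1 fell, Rgs2, a brake on G proteins (-0.32, SE 0.0683, edgeR adjusted p = 0.0467, background 0.104% lower at 1 h), and of 7 tested chemokine processing genes 0 were called.

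By pattern across the 9 macrophage libraries, the genes most like Cxcl2 in Pearson correlation of log2(CPM + 1) were Nfkbiz (0.999), Tnf (0.998) and Tnfsf9 (0.998), among 10728 genes. Those most like Cxcl1 were Tlr2, Acod1 and Clec4e (0.995 each), and those most like Cxcl10 were Osm (0.987), Icam1 (0.987) and Pde4b (0.986). Cxcl16 was most like Osm (0.975). These values describe a split of the libraries into 3 high and 6 low ones and carry no test. In fibroblasts Cxcl1 was most like Atf4 (0.989), F3 (0.989) and Ankrd1 (0.978), and Cxcl10 most like Gem (0.985), Gadd45a (0.984) and Gadd45b (0.981). In the libraries labelled MAEC the most like gene was Dyrk1b for Cxcl5 (0.942) and Zfp318 for Cxcl1 (0.939).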

How the data were processed

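The deposited table holds estimated counts per gene symbol for all 27 libraries. Per the submitters' processing notes the authors used mm10 (GRCm38.p6), STAR, RSEM, FastQC, cutadapt, DESeq2 and R 4.3.2; order and settings are not given in the sources used here. Which tool gave the counts is not given either. The deposited values were treated like expected counts and rounded, though all were already whole. Each cell type was fitted with edgeR 4.0.16 (R 4.3.3). Genes passed filterByExpr at a minimum count of 10, libraries were TMM-scaled, and robust two-sided quasi-likelihood F-tests were adjusted by Benjamini-Hochberg over all genes tested, with a threshold of 0.05. Differences between cell types came from 1 model of all 27 libraries. Alternatives were DESeq2 1.42.0, limma-voom (limma 3.58.1), other scalings, filters and sample choices, and each library left out. The 95% intervals of log2 fold changes are normal approximations from the SE. They are narrower than the F-tests and can exclude no change where the unadjusted p is over 0.05. CPM is TMM-scaled within a cell type unless stated. The members, pathway lists and tests were chosen with earlier results of these data known. All members are named, list genes only where called (up to 4 by smallest p), and the 3 genes of most like pattern by Pearson correlation. Within groups no libraries held the same counts (lowest chi-squared per degree of freedom 5.89). Promoter sequences are from RefSeq. The tests were tested on simulated data.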

Additional observations from a re-analysis of the deposited data

How the results depend on the processing

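Counts of called chemokines stayed within 1.5 times the reported count in 247 of 250 alternative fits. The other 3 all left out the third 1 h and 2 h macrophage libraries and gave 3 members for 1 h against 0 h, 3 for 2 h against 1 h and 2 for the 1 h difference between macrophages and fibroblasts, where 0 were called as labelled. In ImP comparisons the reported count was 0 and the main fit called at most 4 of all genes. Agreement there was near certain and shows little. At 0 h the number called was compared, not which members were called. Among fold changes of single members, 599 of 626 kept direction and call, 8 gained a call without those libraries, and 1 lost it (Cxcl10, macrophages against the libraries labelled MAEC at 0 h, 3.86 in limma-voom). Another 11 gained a call at 0 h. Between macrophages and fibroblasts these were Cxcl3 in DESeq2 (-3.72), limma-voom (-3.60), library totals alone (-4.01), only the groups compared (-3.59) and without the second macrophage library (-6.99), and Cxcl2 (1.38) in only the groups compared. Between macrophages and the libraries labelled MAEC it was Cxcl1 (-1.95) in only the groups compared. Between the latter and fibroblasts they were Cxcl16 and Cxcl14 with 1 library left out: Cxcl16 ran from -0.46 to 0.12 and Cxcl14, with 15 counts in one type and 2 in the other, from -2.48 to 5.19. Of the 7 that changed sign without a call, 2 are in these ranges. In the others, Cxcl10 in macrophages at 2 h was -0.41 without the third libraries and ran from -0.41 to 1.32 with each library left out, and Cxcl1 for 2 h against 1 h ran from -4.18 to 0.19. Runs of library codes, fitted as a replicate block, called 0 members in every ImP comparison. Their pairing was not shown: correlations of deviations within runs were over 0.1 in 1 of 9 macrophage, 5 of 9 fibroblast and 3 of 9 MAEC pairs. Scaling by library totals alone moved the median of all genes at 0 h to -0.48 for macrophages against fibroblasts and to -0.36 for macrophages against the libraries labelled MAEC. Depth limits Cxcl3, Cxcl5 and Cxcl9 in macrophages, Cxcl9 and Cxcl14 in fibroblasts, and Cxcl3, Cxcl9, Cxcl10 and Cxcl14 in the libraries labelled MAEC.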
